A study of Mus musculus with 2 samples.

Results

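The genes of sterol and fatty acid synthesis were followed through single cells of cultured adult mouse neural stem/progenitor cells (NSPCs) that had been sorted by their lipid droplets (LDs). The list held 34 genes, chosen by name, with earlier results of these data known. Of these, 33 were among the 15046 genes of the count table. They were 18 genes of the sterol arm, from acetyl-CoA to cholesterol, 11 genes of the fatty acid arm and 4 genes that regulate both (*Insig1*, *Srebf1*, *Srebf2* and *Scap*). Levels of the remaining one, *Acacb* of the fatty acid arm, were not analysed here, and only its promoter was read.

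The NSPCs came from the subventricular zone (SVZ) of male C57/Bl6 mice aged 6 to 8 weeks and were grown with EGF and FGF-2 as a proliferating culture. All cells belonged to 1 stable line that carried a retrovirus coding for the LD coat protein PLIN2 fused to GFP, so both groups expressed the fusion protein. The 25% of cells with the lowest and the 25% with the highest GFP signal, were put one by one into wells (low PLIN2-GFP NSPCs and high PLIN2-GFP NSPCs) and sequenced by SORT-seq, which counts unique molecular identifiers (UMIs) at the 3′ end of transcripts. The 2 plates gave 304 cells, of which plate 1 held 95 low and 84 high cells and plate 2 held 72 low and 53 high cells. The authors gave each cell a cell cycle phase and a cluster.

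Cells make cholesterol and fatty acids from the same precursor, acetyl-CoA. In the sterol arm, acetyl-CoA is turned into mevalonate, then into isoprenoid units and squalene, and squalene is closed into a ring and trimmed to cholesterol. In the fatty acid arm, acetyl-CoA carboxylase and fatty acid synthase (FASN) make palmitate, which elongases (ELOVL) and desaturases (SCD, FADS) lengthen and unsaturate. Both arms are under the SREBP transcription factors, which SCAP carries to the Golgi when sterols are low and INSIG holds back when sterols are plentiful. LDs store both products, as cholesterol esters and triacylglycerols, and dividing NSPCs need lipids for new membranes.

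The labels say that the plates are replicates 1 and 2, and nothing says that they came from separate cultures. With the plate as a block, p-values measure how differences within a plate vary over plates of 1 line, with spread borrowed from all genes. On both plates, 0 of the 16 rows of wells held cells of both categories, so a row and a category cannot be told apart. The sums over the cells of a plate and category held from 778022 to 1029023 UMIs. High PLIN2-GFP NSPCs had more UMIs per cell, with medians of 11709 and 14729 on plates 1 and 2 against 7856 and 11955 in low cells. Cells of the 2 plates carried well barcodes from 1 set, with 59 of them in use on both. The 5 NSPC markers *Fabp7*, *Vim*, *Nes*, *Hes1* and *Sox2* summed to between 6294 and 6404 counts per 1000000 UMIs (CPM) in the 4 sums, and *Olig1* and *Olig2* to between 3260.4 and 3605 CPM. The 3 astrocyte markers, *Gfap*, *Aqp4* and *S100b*, summed to between 8.17 and 24.3 CPM, with *Gfap* at 0 on plate 2. Neuron (2 of 4 in the table) and endothelial (1 of 2) markers stayed at or under 15.2 CPM, and none of the 3 microglia markers was in the table. Of the oligodendrocyte lineage list, *Olig1* and *Olig2* were in the table, and *Mbp* and *Mog* were not.

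SREBPs bind sterol regulatory elements near gene starts together with the factor NF-Y, whose site is the CCAAT box, so the starts of the members were read for these letters. RefSeq promoters of GRCm38.p6, from 250 bases before the start to 50 after it, were at hand for 28 of the 34 members, 15 of the sterol arm, 9 of the fatty acid arm (*Acacb* among them) and the 4 regulators. *Fdps*, *Fdft1*, *Sqle*, *Scd1*, *Scd2* and *Fads1* were the others. Both strands were searched. The element TCACNCCAC was in the promoter of 1.44% of 27025 genes and of 1 member, *Hmgcs1*. The letters CCAAT were in 41.1% of all promoters, in 14 of the 15 promoters of the sterol arm, in 6 of the 9 of the fatty acid arm and in 3 of the 4 of the regulators. CACGTG, an E-box that SREBP1 can bind, was in 8.09% of all promoters, in 3 of the sterol arm, 1 of the fatty acid arm and 2 of the regulators. The following stretches are from members whose levels are described next. They are given from 5′ to 3′ on the strand of the gene, with the letters of the motif in capitals (ATTGG is CCAAT on the other strand).
*Hmgcs1*, sterol element 137 bases before the start, chr13:119690204-119690233, plus strand: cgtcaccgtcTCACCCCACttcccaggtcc
*Hmgcs1*, CCAAT box 45 bases before the start, chr13:119690294-119690323, plus strand: tccccgcctctcATTGGctgaaagcggatc
*Idi1*, CCAAT box 14 bases before the start, chr13:8885576-8885605, plus strand: catggtccaaggtgccATTGGctggcgacc
*Cyp51*, CCAAT box 29 bases before the start, chr5:4104709-4104738, minus strand: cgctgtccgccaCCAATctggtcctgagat
*Msmo1*, CCAAT box 55 bases before the start, chr8:64733616-64733645, minus strand: gagtggggcggaCCAATtacgacaggcgag
*Sc5d*, CCAAT box 24 bases before the start, chr9:42264307-42264336, minus strand: cgccggctgctgATTGGccggctgcctgca
*Fasn*, CCAAT box 59 bases before the start, chr11:120824589-120824618, minus strand: cctcggtgtccaATTGGtttcgatgtggag
In the *Fasn* stretch, another CCAAT, on the strand of the gene 62 bases before the start, overlaps the marked letters and is not marked. These matches describe the letters in the window and no binding was measured.

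The 33 members together took 0.815% of all UMIs on plate 1 and 0.822% on plate 2. The sterol arm held 0.341% and 0.369% and the fatty acid arm 0.44% and 0.419%. Within each arm 1 gene stood out in UMIs. *Scd2*, the stearoyl-CoA desaturase that is abundant in brain and puts the first double bond into saturated fatty acids, gave 59.1% of the UMIs of the fatty acid arm. *Hmgcs1*, the cytosolic HMG-CoA synthase of the mevalonate pathway, gave 23.6% of those of the sterol arm. At the other end, *Acss2*, which makes acetyl-CoA from acetate, had 8.5 and 9.5 estimated UMIs in high and low cells of plate 1 and 6.5 and 4.83 on plate 2, and passed no filter on low counts. The elongase gene *Elovl1* passed the filter for the categories but not for the phases.

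To ask whether NSPCs with many LDs express lipid synthesis genes at another level, edgeR was fitted to the summed counts with a term for the plate. Genes with an adjusted p under 0.1 are called. Levels are CPM over the genes tested, scaled by TMM. Across all genes, 2.14% of the 8348 tested were called, 1.26% as lower and 0.886% as higher in high cells. Of the 32 members tested, 1 was called, *Hmgcs1*, and it was lower. With library size as the only scaling, 64.3% of all called genes were higher in high cells, against 41.3% with TMM, and *Hmgcs1* was again the 1 member called.

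*Hmgcs1* (chromosome 13 of GRCm38, 119690379 to 119708260, plus strand), the gene of the enzyme that joins acetyl-CoA and acetoacetyl-CoA to HMG-CoA, had 968 and 945 CPM in low cells of plates 1 and 2, and 778 and 747 CPM in high cells. Both high sums lay below both low sums. The log2 fold change was -0.33 (SE 0.09, edgeR adjusted p = 0.0175). The call rests on the block and on the spread borrowed from all genes, as the fit left 1 residual degree of freedom. It was lost without the block (adjusted p = 0.996), in DESeq2 (adjusted p = 1.00) and with any 1 of the 4 sums left out (adjusted p from 0.987 to 1.00), while the log2 fold change stayed between -0.41 and -0.26 under all 12 alternatives. Within phases, the level was lower in high cells in 5 of 6 pairs of sums, the exception being S phase of plate 1. Of its UMIs, 18.6% came in values that were not whole, which is how shared reads show in these estimated counts, and the gene overlaps *Gm48342* on the opposite strand.

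**Figure D1:**
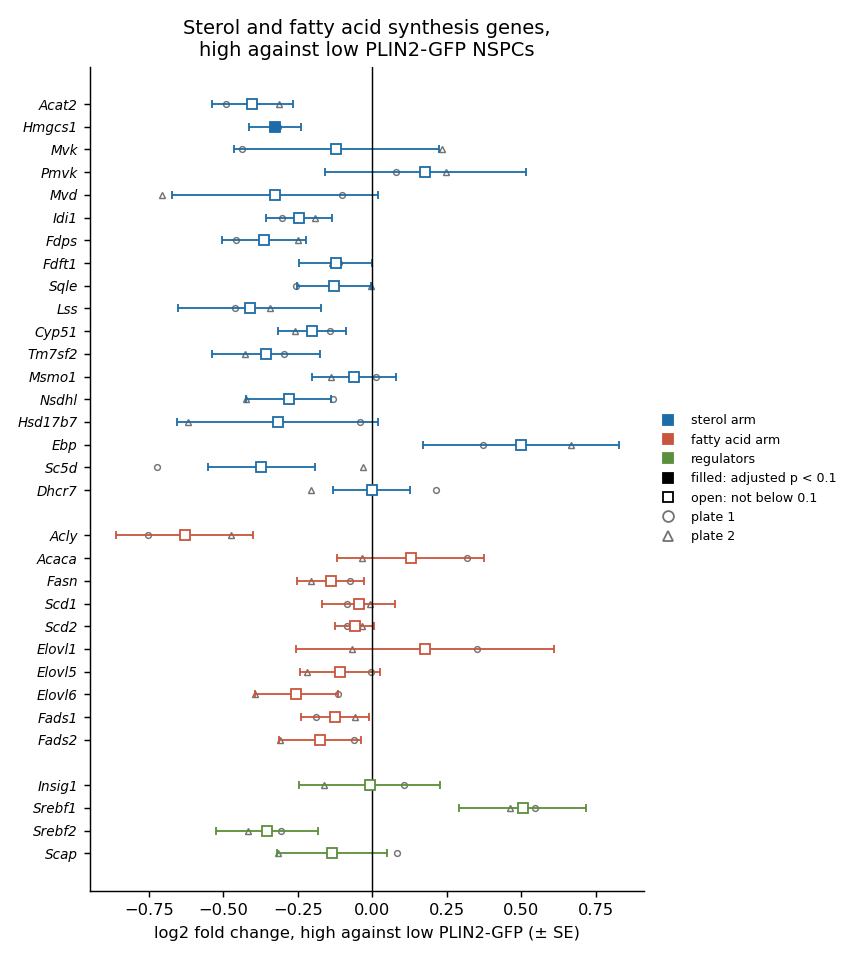
Log2 fold change of each tested member between high and low PLIN2-GFP NSPCs (x axis), with squares for the edgeR estimate and bars for its SE (n = 2 plates), and open circles and triangles for the log2 ratio on plates 1 and 2. Most squares of the sterol arm lie left of 0, *Hmgcs1* at -0.33 is the filled one, and *Srebf1* at 0.51 lies furthest to the right.

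The rest of the sterol arm lay mostly on the same side of 0. Of its 18 genes, 16 had a log2 fold change below 0, and the median was -0.26, against -0.00 over all genes tested. On both plates, 13 of the 18 were lower in high cells and 2 were higher, where 28.4% of all genes tested were lower and 27.9% higher on both. At an unadjusted p under 0.05 there were 7 of the 18, all lower, where 5.82% of all genes were lower and 5.17% higher at that p. The median stayed below 0 in every alternative fit, but was -0.09 without the high sum of plate 1 and -0.14 without the low sum of plate 2.

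Next to *Hmgcs1* in the pathway stands *Acat2*, whose thiolase makes the acetoacetyl-CoA that HMGCS1 uses. *Acat2* had 241 and 253 CPM in low and 171 and 203 CPM in high cells (log2 fold change -0.40, SE 0.14, edgeR adjusted p = 0.129). It missed the threshold, though the sums did not overlap. With 12 sums and the phase in the fit, *Acat2* was called as lower (log2 fold change -0.46, edgeR adjusted p = 0.0497). The isoprenoid genes *Idi1* and *Fdps* were not called. *Idi1*, an isomerase and the second gene of the arm in UMIs, had 392 and 459 CPM in low and 318 and 401 CPM in high cells (adjusted p = 0.356 in edgeR). For *Fdps*, which makes farnesyl diphosphate, the values were 255 and 189 CPM in low and 186 and 159.5 CPM in high cells (adjusted p = 0.234 in edgeR). The sums of *Idi1* overlapped between categories and those of *Fdps* did not.

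Of the late genes of the arm, from lanosterol to cholesterol, *Cyp51*, *Tm7sf2*, *Nsdhl*, *Hsd17b7* and *Sc5d* were lower in high cells on both plates. *Msmo1* and *Dhcr7* went opposite ways on the plates, and *Ebp* was higher on both. *Cyp51*, the lanosterol demethylase and next to *Idi1* in UMIs, had 338 and 442 CPM in low and 306 and 369 CPM in high cells. *Ebp*, the sterol isomerase, was one of the 2 genes that were higher on both plates, with 26.3 and 19.4 CPM in low and 34.0 and 30.9 CPM in high cells (log2 fold change 0.50, SE 0.33, edgeR adjusted p = 0.626). The other of these 2 in the whole arm was *Pmvk*, phosphomevalonate kinase of the earlier mevalonate steps, with 18.4 and 30.4 CPM in low and 19.4 and 36.0 CPM in high cells. Neither stood out from the spread. *Dhcr7*, the last reductase, was higher in high cells of plate 1 and lower on plate 2, at a log2 fold change of -0.00.

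In the fatty acid arm, 0 of 10 tested genes were called, and 1 had an unadjusted p under 0.05. The log2 fold change was below 0 for 8 of the 10, with a median of -0.12, and 8 were lower on both plates, where 28.4% of all genes tested were. With library size as the only scaling the median was -0.05. *Scd2* had 2804 and 2506 CPM in low and 2647 and 2447 CPM in high cells, and the values of the categories overlapped (log2 fold change -0.06, SE 0.07, edgeR adjusted p = 0.846). *Fasn*, the synthase that makes palmitate, had 376 and 387 CPM in low and 357 and 336 CPM in high cells. Both high sums were below both low sums, but the difference was within its error (log2 fold change -0.14, SE 0.11, edgeR adjusted p = 0.743), and its 95% interval ran from -0.36 to 0.08. *Fads1*, the delta-5 desaturase of polyunsaturated fatty acids, had 388 and 355 CPM in low and 340.3 and 340.9 CPM in high cells.

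*Acly*, the citrate lyase that supplies cytosolic acetyl-CoA to both arms, gave the lowest log2 fold change of the members. It had 86.8 and 64.4 CPM in low and 51.5 and 46.3 CPM in high cells (log2 fold change -0.63, SE 0.23, edgeR adjusted p = 0.191). The value was lower in high cells in 6 of 6 pairs of plate and phase, as was that of the elongase gene *Elovl6*. In edgeR neither passed the threshold.

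Among the regulators, the SREBP genes stood on opposite sides of 0. *Srebf1*, which codes for SREBP1 and is known mainly for fatty acid genes, had 60.5 and 60.7 CPM in low and 88.5 and 83.6 CPM in high cells. Its log2 fold change was 0.51 (SE 0.21, unadjusted p = 0.0176, edgeR adjusted p = 0.304), and it was not lower in high cells in any of the 6 pairs of plate and phase. *Srebf2*, which codes for SREBP2 and is known mainly for sterol genes, had 138 and 120.2 CPM in low and 112 and 90.04 CPM in high cells (log2 fold change -0.35, SE 0.17, unadjusted p = 0.0384, edgeR adjusted p = 0.413). For both, the low and high sums did not overlap, and neither was called. *Insig1* had 63.1 and 54.6 CPM in low and 68.1 and 48.9 CPM in high cells, and *Scap* 78.9 and 125 CPM in low and 83.6 and 100.3 CPM in high cells, with overlapping sums for both genes.

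Given as a share of all UMIs, the sterol arm made up 0.362% and 0.39% of the UMIs of low and 0.324% and 0.346% of those of high cells on plates 1 and 2. The difference within a plate was -0.041 percentage points (SD 0.004, n = 2 plates). As a mean over cells it was -0.0415, with a wider SD of 0.0267. The fatty acid arm made up 0.443% and 0.425% in low and 0.438% and 0.413% in high cells, a difference of -0.00818 percentage points (SD 0.00428, n = 2 plates). There were 0.817 and 0.919 sterol UMIs for each fatty acid UMI in low cells, and 0.739 and 0.837 in high cells. The ratio was thus lower in high cells on both plates, also with *Scd2* left out (2.04 and 2.12 in low, 1.87 and 2.05 in high cells). No test was made on these shares, since the members make a chosen sum. Median mitochondrial shares per cell were 13.97% and 12.5% in low and 11.9% and 12.4% in high cells, and their part in the differences was not tested, but with mitochondrially encoded genes left out the sterol arm differed by -0.054 percentage points.

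The wider pathway was read from 2 further lists. Of 19 tested sterol genes outside the 34 (synthesis, uptake, transport, export and SREBP processing), 0 were called between the categories. In edgeR, 5 had an unadjusted p under 0.05, 2 of them higher and 3 lower in high cells. Over all genes tested, 11% had such a p. The median log2 fold change of the list was 0.05, with 11 genes above 0 and 8 below. The cholesterol ester synthase gene *Soat1* had 74.98 and 54.6 CPM in low and 95.3 and 83.6 CPM in high cells (edgeR adjusted p = 0.354). *Apoe*, the lipoprotein of cholesterol transport, had 356 and 171 CPM in low and 382 and 249.5 CPM in high cells, and *Acat1*, the mitochondrial thiolase, had a log2 fold change of 0.05. Of 11 tested fatty acid genes outside the 34, 0 were called, with 2 at an unadjusted p under 0.05 in edgeR, 1 higher and 1 lower. Malic enzyme, *Me1*, a source of NADPH for lipid synthesis, was the higher one, with 124 and 146 CPM in low and 185 and 181 CPM in high cells (log2 fold change 0.45, SE 0.15, edgeR adjusted p = 0.136). The genes of this list with the most UMIs, *Mid1ip1*, *Tecr* and *Hacd3*, had log2 fold changes of -0.12, -0.08 and 0.03.

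The cell cycle phase was compared next, as the authors scored it, in sums over the cells of each plate and phase with the plate as a block. G1 held 132 cells, S 77 and G2/M 95. None of the 34 members is in the S and G2/M gene lists with which Seurat gives phases. Across all genes, 16.4% of 7650 were called between G2/M and G1, 9.01% as higher and 7.4% as lower in G2/M. Of the 31 members tested, 10 rose in G2/M and 0 fell. The risen genes were 9 of 18 in the sterol arm, 1 of 9 in the fatty acid arm and 0 of 4 regulators. Cell type markers differed between the phases as well. *Olig1* and *Olig2* summed to 4360.5 and 4125 CPM in G1, 3334 and 3283 CPM in S and 2522 and 2689.6 CPM in G2/M, the 3 astrocyte markers to 43.0 and 17.6 CPM in G1 and 4.92 and 3.88 CPM in G2/M, and the 5 NSPC markers to 6822 and 6944 CPM in G1 and 5845 and 6316 CPM in G2/M. The part of these differences in the results by phase was not tested.

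In the mevalonate and isoprenoid steps, *Acat2*, *Idi1* and *Fdps* rose. *Acat2* had 156 and 166 CPM in G1, 200.2 and 266 CPM in S and 262 and 256 CPM in G2/M of plates 1 and 2 (G2/M against G1, log2 fold change 0.68, SE 0.16, edgeR adjusted p = 0.00337). *Idi1* had 307 and 305 CPM in G1, 329.96 and 484 CPM in S and 428 and 509 CPM in G2/M (log2 fold change 0.59, SE 0.13, edgeR adjusted p = 0.00219). Both G2/M sums lay above both G1 sums for each gene, and in 4 of 4 pairs of plate and category G2/M was above G1. *Fdps* went from 196 and 145 CPM in G1 to 236 and 234 CPM in G2/M (edgeR adjusted p = 0.0681).

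*Hmgcs1*, the gene called between the categories, was not among them. Its level was 857 and 849.98 CPM in G1, 693 and 861 CPM in S and 1013 and 869 CPM in G2/M (log2 fold change of G2/M against G1 0.14, SE 0.10, edgeR adjusted p = 0.448).

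At the squalene steps, *Fdft1*, squalene synthase, rose from 262 and 223 CPM in G1 to 348 and 375 CPM in G2/M (log2 fold change 0.55, SE 0.15, edgeR adjusted p = 0.0122). *Sqle*, squalene epoxidase, rose from 237 and 266 CPM to 343 and 342 CPM (log2 fold change 0.45, SE 0.14, edgeR adjusted p = 0.0291), and just missed the threshold in thinned cells (edgeR adjusted p = 0.101). *Lss*, which closes the ring, went opposite ways on the plates, with 67.2 and 32.8 CPM in G1 and 47.6 and 57.0 CPM in G2/M.

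After the ring is closed, *Cyp51*, *Msmo1*, *Sc5d* and *Dhcr7* rose. *Msmo1*, the methyl sterol oxidase, had 154 and 182 CPM in G1, 196 and 189 CPM in S and 265 and 252 CPM in G2/M (G2/M against G1, log2 fold change 0.64, SE 0.16, edgeR adjusted p = 0.00523). *Sc5d*, the sterol C5 desaturase, had 72.7 and 86.0 CPM in G1 and 127 and 110.1 CPM in G2/M (log2 fold change 0.60, SE 0.22, edgeR adjusted p = 0.072). *Cyp51* went from 269 and 367 CPM to 398 and 409 CPM (adjusted p = 0.074 in edgeR), and *Dhcr7* from 195 and 258 CPM to 289 and 299 CPM (adjusted p = 0.0757 in edgeR). For all of these both G2/M sums were above both G1 sums. *Tm7sf2*, a sterol reductase gene, had 112 and 133 CPM in G1 and 102 and 88.5 CPM in G2/M (edgeR adjusted p = 0.328), one of the 2 sterol genes with a log2 fold change below 0.

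**Figure D2:**
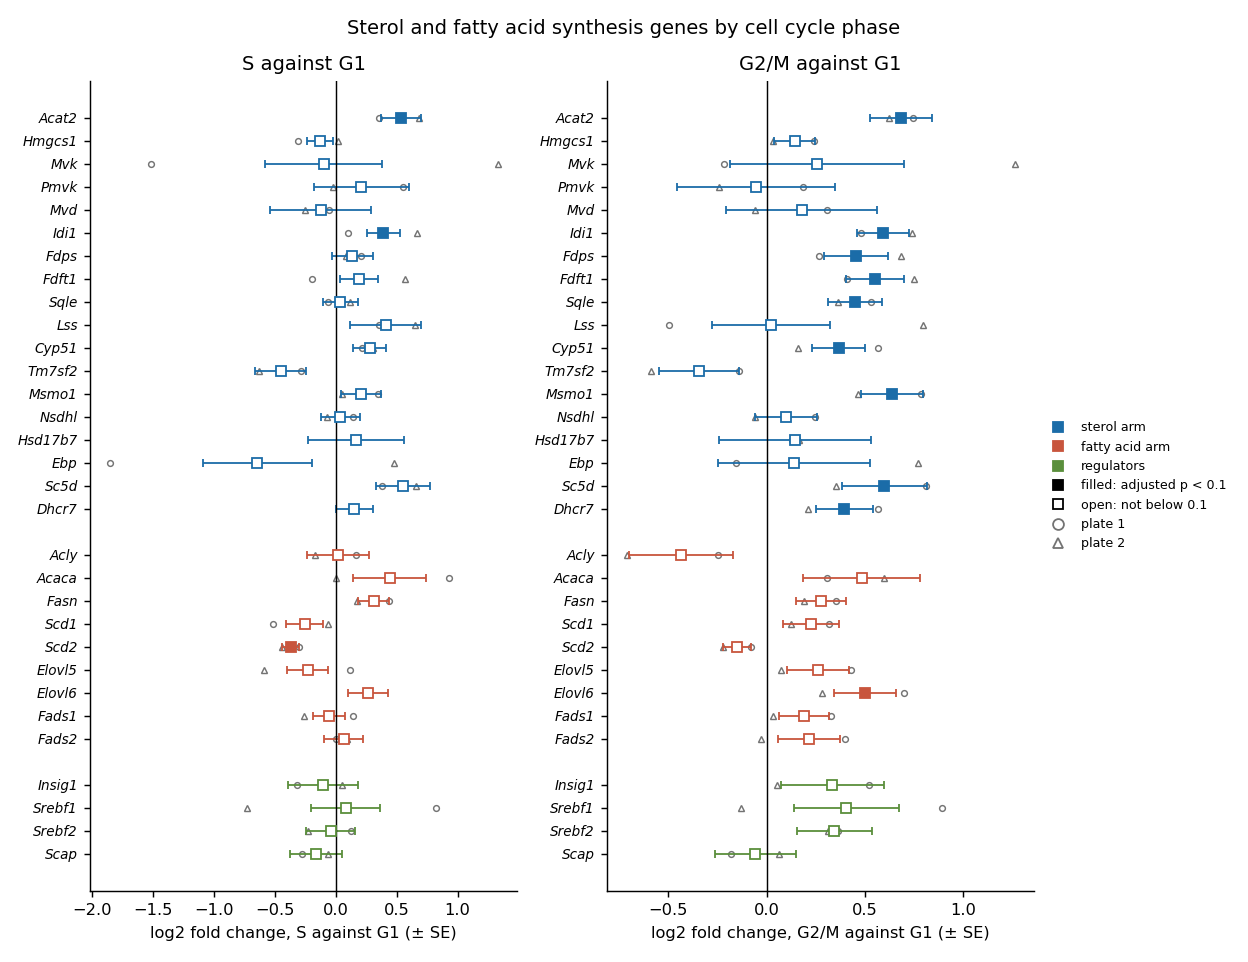
Log2 fold change of each tested member in S (left) and G2/M (right) against G1 (x axes), with squares for the edgeR estimate and bars for its SE (n = 2 plates), filled where the adjusted p is under 0.1, and open circles and triangles for plates 1 and 2. In G2/M the 10 filled squares all lie right of 0, and in S *Scd2* at -0.37 is filled on the left.

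The median log2 fold change of the sterol arm between G2/M and G1 was 0.31, with 16 of 18 genes above 0, against a median of -0.01 over all genes. On both plates, 11 of the 18 were higher in G2/M and 1 was lower, where 31.3% of all genes tested were higher and 33.6% lower on both. The number of calls depended on the test. Without the block 3 members were called (*Acat2*, *Idi1* and *Msmo1*), and DESeq2 with the block called 1 (*Idi1*, adjusted p = 0.0888), all as higher, and the sterol arm's median was 0.37 in DESeq2.

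In the fatty acid arm, the elongase gene *Elovl6*, which extends palmitate, was the 1 gene called in G2/M. It had 154 and 200.7 CPM in G1, 183 and 238 CPM in S and 249.8 and 244 CPM in G2/M (log2 fold change 0.50, SE 0.16, edgeR adjusted p = 0.0354), and was not called in cells thinned to 5000 UMIs (edgeR adjusted p = 0.334). *Fasn* had 311 and 336 CPM in G1, 422 and 379 CPM in S and 398 and 383 CPM in G2/M. Its log2 fold change was 0.31 (SE 0.13, edgeR adjusted p = 0.139) in S and 0.28 (SE 0.13, edgeR adjusted p = 0.173) in G2/M, and it missed the threshold although it was above G1 in 4 of 4 pairs of plate and category in either phase. With library size as the only scaling, *Fasn* was called as higher in S (edgeR adjusted p = 0.0499), as it was in thinned cells (edgeR adjusted p = 0.0920). *Scd1*, the desaturase gene next to *Scd2* on chromosome 19, had 283 and 303 CPM in G1, 198 and 290 CPM in S and 352 and 330.2 CPM in G2/M, and was not called. *Fads1* had 328 and 373 CPM in G1 and 411 and 381 CPM in G2/M, and *Acly* had 68.6 and 67.6 CPM in G1 and 57.8 and 41.3 CPM in G2/M (edgeR adjusted p = 0.339).

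Between S and G1, 12.7% of the 7650 genes were called, 7.56% as higher and 5.19% as lower in S. Library size as the only scaling moved the share of higher ones among the calls from 59.3% to 73.8%. Of the 31 members, 2 rose and 1 fell. On both plates, 9 of the 18 genes of the sterol arm were higher in S and 2 were lower, where 30.3% of all genes tested were higher and 33.3% lower on both. *Acat2* (log2 fold change 0.54, SE 0.16, edgeR adjusted p = 0.0361) and *Idi1* (log2 fold change 0.39, SE 0.13, edgeR adjusted p = 0.071) rose, both on each plate, but in thinned cells neither was called (edgeR adjusted p = 0.169 for *Acat2* and 0.246 for *Idi1*). The gene that fell was *Scd2*, with 2935 and 2927 CPM in G1, 2378 and 2160.1 CPM in S and 2777 and 2512 CPM in G2/M. Both S sums lay below both G1 sums, the log2 fold change was -0.37 (SE 0.07, edgeR adjusted p = 7.82e-04), and S was below G1 in each of the 4 pairs of plate and category. DESeq2 called it too, and the edgeR test without the block did not (adjusted p = 0.128). In G2/M, *Scd2* had a log2 fold change of -0.15 (SE 0.07, edgeR adjusted p = 0.201), and was called as lower only in thinned cells among the alternatives (edgeR adjusted p = 0.0713). *Sc5d*, with 94.6 and 136 CPM in S, and *Tm7sf2*, with 92.4 and 85.8 CPM in S, had unadjusted p-values under 0.05 against G1 and edgeR adjusted p-values of 0.13 and 0.2.

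**Figure D3:**
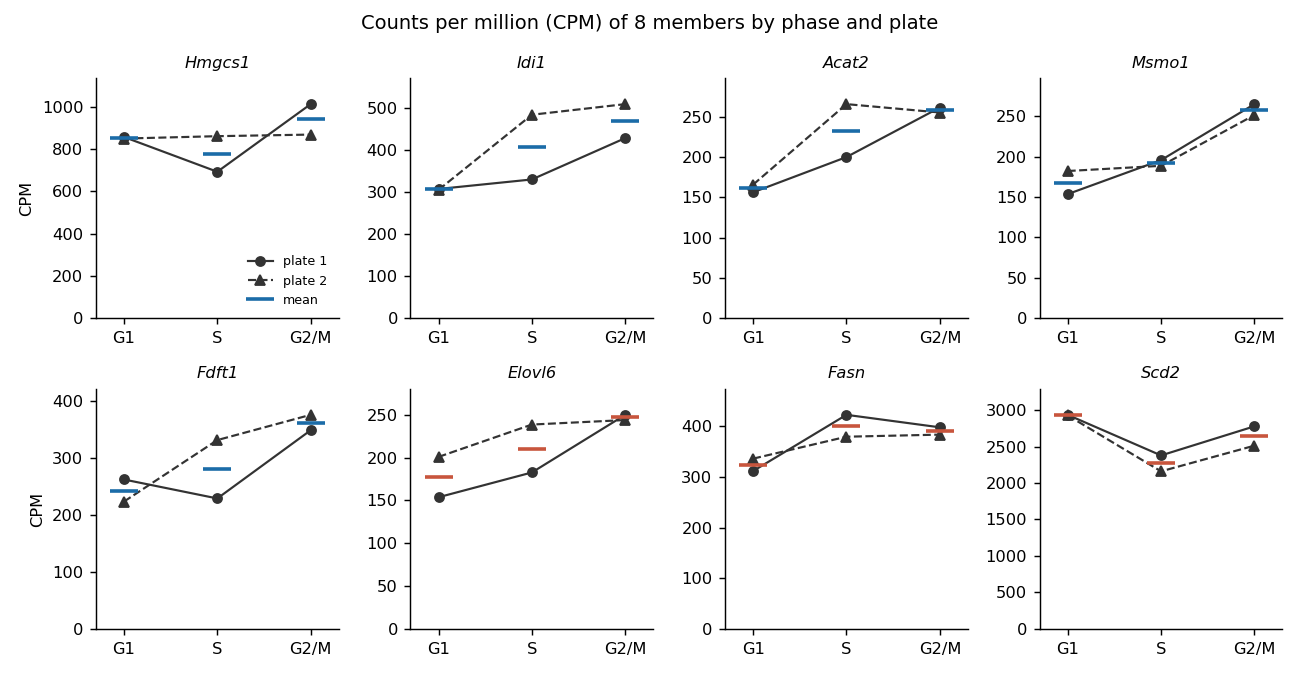
Level in CPM (y axes, from 0) of 8 members in G1, S and G2/M cells (x axes), with circles and solid lines for plate 1, triangles and dashed lines for plate 2, and bars for the mean of both. *Idi1*, *Acat2*, *Msmo1* and *Fdft1* are highest in G2/M by their mean, while *Scd2* is lowest in S, at 2378 and 2160.1 CPM.

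None of the 4 regulators was called in either phase, and in the alternatives 1 was once (*Srebf1* in G2/M, edgeR adjusted p = 0.0975). In G2/M against G1, *Srebf2* had a log2 fold change of 0.34 (111 and 104 CPM in G1, 143 and 129.7 CPM in G2/M, edgeR adjusted p = 0.285), and *Srebf1* one of 0.41, with the plates apart, at 52.1 and 88.1 CPM in G1 and 96.9 and 80.6 CPM in G2/M. *Insig1* had 60.4 and 51.2 CPM in G1 and 86.7 and 53.1 CPM in G2/M, and *Scap* 90.5 and 115 CPM in G1 and 79.9 and 119.9 CPM in G2/M. The S sums of *Srebf1* lay on either side of G1, at 92.4 and 53.2 CPM.

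By share of UMIs, the arms differed over the phases. The sterol arm held 0.303% and 0.312% of UMIs in G1, 0.314% and 0.393% in S and 0.409% and 0.4% in G2/M of plates 1 and 2. The fatty acid arm held 0.433% and 0.442% in G1, 0.408% and 0.39% in S and 0.475% and 0.429% in G2/M. From G1 to G2/M the sterol arm gained 0.097 percentage points (SD 0.013, n = 2 plates) and the fatty acid arm 0.015 (SD 0.038), which was +0.042 on plate 1 and -0.012 on plate 2. Without *Scd2*, a choice made after seeing the data, the fatty acid arm held 0.154% and 0.169% in G1 and 0.204% and 0.187% in G2/M, a gain of 0.034 percentage points (SD 0.022). For each fatty acid UMI there were 0.7 and 0.706 sterol UMIs in G1, 0.77 and 1.01 in S and 0.862 and 0.931 in G2/M. Without *Scd2* the ratio was 1.97 and 1.84 in G1, 1.81 and 2.26 in S and 2.01 and 2.13 in G2/M, so that in S the plates lay on either side of G1. Depth and the mitochondrial share moved with the phases. Median UMIs per cell were 8290 and 9825 in G1, 10994 and 15301 in S and 9565 and 12902 in G2/M, and median mitochondrial shares were 14.04% and 13.8% in G1 and between 11.3% and 11.9% in S and G2/M. With mitochondrially encoded genes left out, the sterol arm gained 0.101 percentage points from G1 to G2/M, and in cells thinned to 5000 UMIs 0.125.

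**Figure D4:**
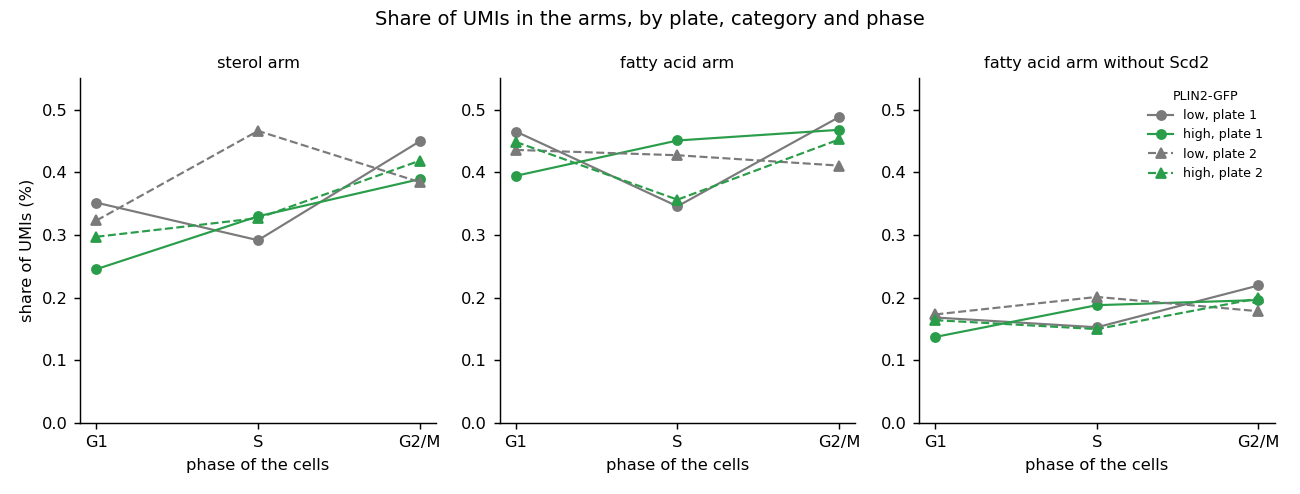
Share of all UMIs (y axes, %) in the sterol arm, the fatty acid arm and the fatty acid arm without *Scd2*, by phase (x axes), with grey for low and green for high PLIN2-GFP NSPCs, circles for plate 1 and triangles for plate 2, each point 1 sum of cells. The sterol arm is higher in G2/M than in G1 in all 4 pairs, and its low S points lie far apart, at 0.292% on plate 1 and 0.466% on plate 2.

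Category and phase were also read together, in 12 sums. The sterol arm's share was lower in high cells in 4 of 6 pairs of plate and phase, and the fatty acid arm's in 3 of 6. The exceptions for the sterol arm were S of plate 1 (0.292% in low, 0.33% in high cells) and G2/M of plate 2 (0.384% in low, 0.418% in high cells). In 4 of 4 pairs of plate and category the share was higher in G2/M than in G1, with high cells of plate 1 at 0.245% in G1 and 0.389% in G2/M. Whether the difference between the categories changed with the phase was tested as an interaction in edgeR. Of all genes, 0.0487% of 6163 were called, and of the 28 members tested 0 were, with 4 at an unadjusted p under 0.05 (*Fdft1*, *Tm7sf2*, *Sc5d* and *Nsdhl*). Over all genes, 333 of the 6163 tested had an unadjusted p under 0.05 in this edgeR fit. *Fdft1* had the smallest p of these (unadjusted p = 0.00283, edgeR adjusted p = 0.483). Its level was 340.1 and 273 CPM in low and 197 and 175 CPM in high cells of G1, and 316 and 336 CPM in low and 377 and 438 CPM in high cells of G2/M, on the scale of this fit.

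The further lists were read over the phases too. Of 19 tested sterol genes outside the 34, 1 rose and 2 fell in G2/M, where 9.01% of all genes rose and 7.4% fell. The genes that fell were *Abca1*, the exporter of cholesterol, from 132 and 119 CPM to 40.8 and 19.7 CPM (log2 fold change -2.02, SE 0.27, edgeR adjusted p = 1.98e-06), and *Apoe*, from 531 and 342 CPM to 167 and 114 CPM (log2 fold change -1.64, SE 0.15, edgeR adjusted p = 2.96e-09). Both also fell in S, to 96.8 and 61.8 CPM for *Abca1* (edgeR adjusted p = 0.0665) and 396 and 189 CPM for *Apoe* (edgeR adjusted p = 0.00392). *Acat1*, also among the genes of this list with the most UMIs, had a log2 fold change of 0.09 in G2/M and was not called. Among 10 tested fatty acid genes outside the 34, *Lpin1*, a phosphatidate phosphatase on the way to triacylglycerols, fell in both phases, from 182 and 239.6 CPM in G1 to 101 and 127 CPM in S and 131 and 118 CPM in G2/M (edgeR adjusted p = 0.00173 and 0.00434). *Me1* fell from 209.9 and 195 CPM in G1 to 123 and 169.9 CPM in S and 127 and 132 CPM in G2/M (edgeR adjusted p = 0.0977 and 0.0114). *Hsd17b12*, of the elongation cycle, fell in S, from 89.2 and 86.0 CPM to 48.4 and 48.0 CPM (edgeR adjusted p = 0.071). *Mid1ip1*, *Tecr* and *Hacd3* were not called.

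From cell to cell, the arms varied several fold. The sterol arm took between 0% and 1.122% of the UMIs of a cell on plate 1, with a median of 0.297%, and between 0.0529% and 0.834% on plate 2, with a median of 0.347%. For the fatty acid arm the range was 0.149% to 1.25% (median 0.424%) on plate 1 and 0.0834% to 0.78% (median 0.408%) on plate 2. At medians of 9444 and 12747 UMIs per cell on plates 1 and 2, these shares rest on few UMIs. The part of counting noise in the ranges was not tested. Cells high in one arm tended to be high in the other, with a Spearman's rho of 0.595 over 179 cells of plate 1 and of 0.566 over 125 cells of plate 2. With all cells thinned to 5000 UMIs, which left out 34 cells of plate 1 and 11 of plate 2, rho was 0.462 and 0.439. These coefficients describe cells of 1 library each, which share its preparation, and both shares are parts of 1 total. The sterol share and the regulators' share gave a rho of 0.164 and 0.112, and the sterol share and the total UMIs of a cell one of 0.000688 and 0.171. The regulators held a mean of 0.0337% of UMIs over the plates, so their share of a cell rests on few UMIs. A low rho with it cannot tell a weak relation from counting noise.

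**Figure D5:**
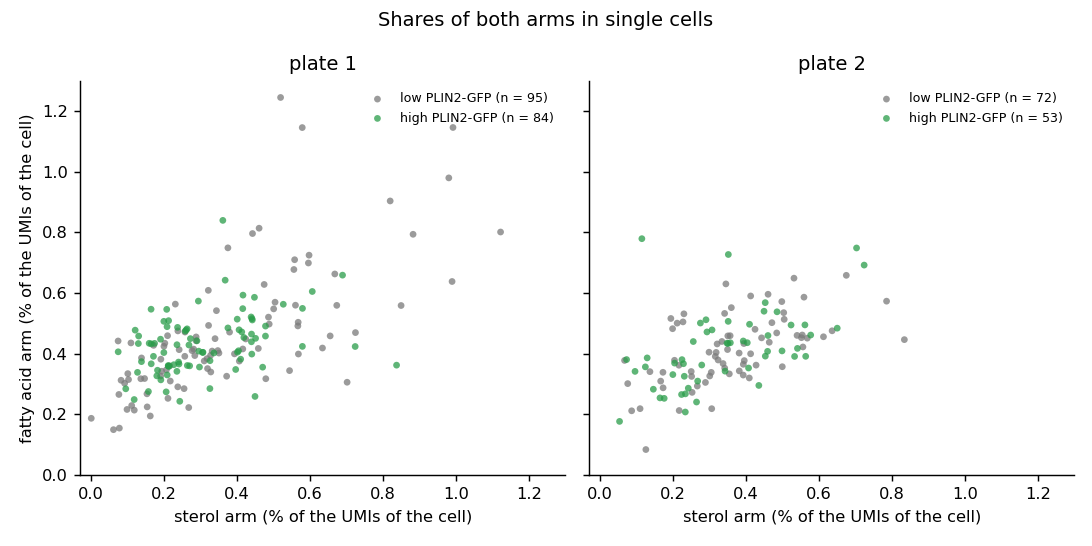
Share of the UMIs of a cell in the sterol arm (x axes, %) and the fatty acid arm (y axes, %), 1 point per cell, with grey for low and green for high PLIN2-GFP NSPCs, on plate 1 (left) and plate 2 (right). Points rise together on both plates (Spearman's rho 0.595 and 0.566), and the highest sterol share, 1.122%, is in a low PLIN2-GFP NSPC of plate 1.

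Within categories, the cells of plate 1 had a median sterol share of 0.322% (low) and 0.271% (high), and those of plate 2 of 0.349% and 0.342%. The upper quartile was 0.511% in low and 0.415% in high cells of plate 1, and 0.465% and 0.453% on plate 2. The difference in medians per cell was thus larger on plate 1 than on plate 2. Low cells also had fewer UMIs per cell on both plates, and the part of depth in these quartiles was not tested.

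The authors' clusters were made from the genes of the same cells, so their values are a description. Cluster 1 held 0.374% and 0.389% of its UMIs in the sterol arm on plates 1 and 2, and cluster 0 0.308% and 0.351%. Of the 18 sterol genes, 11 were higher in cluster 1 on both plates and 2 were lower. The fatty acid arm held 0.437% and 0.414% in cluster 1 and 0.444% and 0.424% in cluster 0. Of its 11 genes, 3 were higher in cluster 1 on both plates and 4 were lower. How many of all genes were so was not counted, for either arm or for the regulators, so these counts have no baseline. *Acat2* had 234 and 274 CPM in cluster 1 and 159.7 and 182 CPM in cluster 0, and *Fasn* had 396 and 404 CPM in cluster 1 and 318 and 313 CPM in cluster 0. Of the 4 regulators, 0 were higher and 2 lower in cluster 1 on both plates, and *Scd2* had 2625 and 2365 CPM in cluster 1 and 2659 and 2486 CPM in cluster 0.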

How the data were processed

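Proliferating PLIN2-GFP NSPCs were sequenced by SORT-seq on 2 plates. Per the labels and the methods, the authors assigned reads with Salmon (alevin) to GRCm38 transcripts, removed cells by mitochondrial percentage and doublet detection, and deposited estimated counts of UMIs per gene and cell without normalization. The versions of Salmon and of the annotation are not given in the sources used here. In the deposited per-cell table the authors give each cell its total count, number of genes, mitochondrial percentage, plate, category, phase and cluster, as well as fractions of mitochondrial and ribosomal counts and scores that were not used here. Each count column was joined to the cell of equal total and gene number. Of 304 columns, 0 stayed unjoined.

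Counts were summed per plate and group (4 sums for categories, 6 for phases, 12 for both) and rounded. edgeR 4.0.16 in R 4.3.3 was fitted on all genes with its filter on low counts, TMM, quasi-likelihood and the plate as a block, and p-values were adjusted by Benjamini-Hochberg over 8348, 7650 and 6163 genes. Genes with an adjusted p under 0.1, the study's level, are called. The study set that level on a Wilcoxon rank sum test of cells with Bonferroni's correction, so the number is shared but not its meaning. The SE is the absolute log2 fold change over the square root of F, and 95% intervals are normal. Residual degrees of freedom were 1, 2 and 5, so the spread comes mostly from all genes (common dispersions 0.00327, 0.00443 and 0.00754). The block stands for the plate that low and high cells shared; the deviations of their sums from the group means correlated at 0.3. The fits were tested on simulated data.

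Estimated counts need not be whole: 87.1% of values above 0 were whole within 1e-06, and 7 members had over 10% of their counts in other values. In GENCODE M21, 18 of the 33 members overlap another gene, 12 of them one on the opposite strand, and whether counting used strand is not given in the sources used here. Promoters are RefSeq's.

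The members and the further lists were chosen with earlier results of these data known. The text names, with values, each member that was called, the 3 with the most UMIs in each arm, *Fasn*, the regulators and the 3 with the smallest p in each direction of a comparison; genes of the further lists are named where called or among the 3 with the most UMIs, except for some that are not reported here, and *Soat1* and *Me1*, and *Fdps*, *Dhcr7* and *Elovl6*, between the categories, and *Lss* and *Fads1* over the phases, were added after their values were seen. Alternatives were no block, DESeq2 1.42.0, library size only, no filter, no mitochondrially encoded genes, cells thinned to 5000 UMIs (45 left out), cells under 20% mitochondrial counts, the other factor in the fit and each sum or plate left out.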

Additional observations from a re-analysis of the deposited data

How the results depend on the processing

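Between the categories 1 member was called. The count was 0 without the replicate block, 0 in DESeq2, 0 to 0 with any 1 sum left out and 2 with 12 sums and the phase in the fit, and 1 in every other alternative. Between S and G1, 3 members were called, against 0 without the replicate block, 1 in DESeq2, 5 with library size as the only scaling and 5 with 12 sums and the category. Between G2/M and G1, 10 were called, against 3 without the block, 1 in DESeq2 and 6 at an adjusted p under 0.05. The plate is the block in all reported fits, as low and high cells and all phases were on each plate. Over all genes, high and low cells differed in 179 genes, in 1 without the block, 10 in DESeq2, 68 in thinned cells and 6 to 22 with 1 sum left out, where the lone sum of a category is assumed to vary like the other. No single gene's called value changed its direction.

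Shares are differences in percentage points. High minus low, all members had -0.049, and -0.0716 without mitochondrially encoded genes. For the sterol arm it was -0.041, with -0.0538 without those genes, -0.0456 in thinned cells and -0.0415 as a mean over cells (SD 0.0267). The fatty acid arm had -0.00818, with -0.0175 without those genes, -0.0149 as a mean over cells (SD 0.0248) and -0.0154 in thinned cells (SD 0.0340), and in these last 2 the plates differed in direction. The sterol arm's gain in G2/M of 0.0975 was 0.0837 as a mean over cells and 0.125 in thinned cells. The fatty acid arm's difference of S from G1 of -0.0379 was 0.0124 with *Scd2* left out, an alternative chosen after seeing the data. With 1 plate left out, that difference ran from -0.0515 to -0.0242, the arm's gain in G2/M from -0.0120 to 0.0422, and the sterol arm's gains from 0.0117 to 0.0814 in S and from 0.0882 to 0.107 in G2/M.

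With 2 plates of 1 line, the calls rest on spread borrowed from all genes, and in thinned cells 13 of the 18 sterol genes were tested over the phases. The interaction was fitted in 1 way.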
